A study of Mus musculus with 4 samples.

Results

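The class III POU genes Pou3f1, Pou3f2, Pou3f3 and Pou3f4 are 4 of the 55426 rows of a gene expression table from mouse retinal organoids. The members were chosen by gene symbol, with their FPKM values (fragments per kilobase of transcript, scaled to the size of the library) in untreated and doxycycline (Dox) libraries already known, so the values below describe that contrast. The members were part of the fit over all genes, and no p-value is given for them. All 4 rows passed the filter used for testing, which kept genes that averaged 1 FPKM or more. Pou3f1, Pou3f2 and Pou3f4 passed only through the untreated libraries, as their Dox means were 0.48, 0.685 and 0.345 FPKM.

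POU proteins bind DNA through a bipartite domain, a POU-specific domain joined by a linker to a POU homeodomain, and are known for the octamer site. The class III genes lack introns and act mainly in the nervous system, often together with SOX proteins. Pou3f1 (Oct6, Tst1) is known from the epiblast and early neural ectoderm and from myelinating Schwann cells. Pou3f2 (Brn2) and Pou3f3 (Brn1) act with partial redundancy in neural progenitors and upper cortical layers, and Pou3f2 also acts in the neuroendocrine hypothalamus. Pou3f4 (Brn4) is known from the inner ear, the ventral forebrain and the early neural tube.

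Poly(A) RNA was sequenced from organoids at day 6 of differentiation, aggregates of mouse cells driven in culture towards retinal progenitors. All libraries came from the Rx:GFP Mettl3 KO line, a knockout of the m6A methyltransferase gene Mettl3 that carries a GFP reporter and a Dox-inducible HA-METTL3. The 2 untreated libraries received no Dox and the 2 Dox libraries received 2 µg/ml for 6 days. The titles call them EV and EV+Dox, which the labels do not explain, and nothing in the labels states that the replicates were separate cultures, so the spread between them may be technical. Mettl3 itself was listed at 40.33 and 37.98 FPKM untreated and at 45.2 and 46.37 FPKM with Dox, a difference of 0.22 in log2 units that did not pass the threshold (adjusted p = 0.122 in limma). These gene-level values do not separate the inducible copy from the knocked-out locus. The labels give all libraries 1 batch date.

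The depth fitted from the steps of the low values was 31.7 to 34.9 × 1e6 fragments per library. The labelled tissue was checked on 10 retinal progenitor markers, of which 9 were higher with Dox and 0 lower past an adjusted p of 0.05 in limma. Across all tested genes 4.44% were called higher and 4.87% lower. The summed level of these markers was 163 to 176 FPKM untreated and 916 to 1070 FPKM with Dox. In the untreated libraries Rax, the gene behind the reporter, was at 1.12 and 0.82 FPKM, and Six6 at 0.01 in both, while other markers of the list were expressed there. Lhx2 was at 26.72 and 24.3 FPKM, Mab21l2 at 12.46 and 11.49, Six3 at 7.7 and 7.05, and Pax6 at 127.76 and 118.86 FPKM.

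The members resemble each other most in the POU domain, and the coding stretch around the longest run shared by any pair is shown because it bears on whether their reads can be told apart. Each line gives 90 bases of the GRCm38 reference transcript, 5′ to 3′, with the bases that are the same in all 4 genes in capitals. The stretches lie in the coding part of the single exon at chr4:124658563-124658652 (Pou3f1, plus strand), chr4:22487129-22487218 (Pou3f2, minus strand), chr1:42698200-42698289 (Pou3f3, plus strand) and chrX:110815144-110815233 (Pou3f4, plus strand).
Pou3f1: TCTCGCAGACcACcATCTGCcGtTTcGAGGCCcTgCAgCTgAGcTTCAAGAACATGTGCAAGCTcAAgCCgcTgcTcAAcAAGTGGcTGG
Pou3f2: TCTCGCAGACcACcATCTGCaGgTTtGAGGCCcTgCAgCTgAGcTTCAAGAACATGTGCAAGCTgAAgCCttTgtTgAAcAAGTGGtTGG
Pou3f3: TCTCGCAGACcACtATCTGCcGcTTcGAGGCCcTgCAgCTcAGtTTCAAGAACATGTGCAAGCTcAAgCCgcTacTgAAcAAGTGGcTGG
Pou3f4: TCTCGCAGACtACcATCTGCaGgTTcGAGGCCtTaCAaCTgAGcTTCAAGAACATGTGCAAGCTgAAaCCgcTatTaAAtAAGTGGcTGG
Of the 90 positions 71 hold the same base in all 4 genes. Against Pou3f3, 84 bases match in Pou3f1, 78 in Pou3f2 and 76 in Pou3f4. The longest run shared exactly by a pair of the transcripts was 38 bases, between Pou3f1 and Pou3f2, and the other 5 pairs shared at most 23 to 29. No stretch of 75 bases was shared between any members on either strand. For Pou3f2, Pou3f3 and Pou3f4 0 such stretches occurred in a transcript of another gene. For Pou3f1 257 of 3775 did, all in Gm2164, an antisense transcript that overlaps the first part of the gene on the opposite strand (chr4:124656840-124657169) and was listed at 0 in all 4 libraries.

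The promoters are shown because the 4 genes were all lower with Dox. RefSeq promoter windows (GRCm38.p6) matched 3 of the 4 members, Pou3f2, Pou3f3 and Pou3f4. The windows hold the 250 bases upstream of the RefSeq start, and each line is written 5′ to 3′ on the gene's strand, with every CCAAT, read on either strand, in capitals. For Pou3f4, whose GENCODE model starts further upstream, only the first 151 bases of the window, with 1 of its matches, are printed (to chrX:110814279). The windows are chr1:42695518-42695767 (Pou3f3, plus strand), chr4:22488367-22488616 (Pou3f2, minus strand) and chrX:110814129-110814378 (Pou3f4, plus strand).
Pou3f3: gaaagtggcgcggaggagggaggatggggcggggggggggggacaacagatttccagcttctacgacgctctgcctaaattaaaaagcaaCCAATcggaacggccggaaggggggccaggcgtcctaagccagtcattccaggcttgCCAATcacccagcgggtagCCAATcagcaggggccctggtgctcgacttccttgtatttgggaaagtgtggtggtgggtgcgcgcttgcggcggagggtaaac
Pou3f2: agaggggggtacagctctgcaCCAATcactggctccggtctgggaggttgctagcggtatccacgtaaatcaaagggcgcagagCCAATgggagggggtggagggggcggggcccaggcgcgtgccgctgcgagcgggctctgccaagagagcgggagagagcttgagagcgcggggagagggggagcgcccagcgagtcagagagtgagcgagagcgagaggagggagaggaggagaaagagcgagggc
Pou3f4: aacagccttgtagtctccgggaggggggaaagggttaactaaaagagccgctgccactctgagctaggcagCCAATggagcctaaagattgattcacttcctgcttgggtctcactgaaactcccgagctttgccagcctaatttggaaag
The Pou3f3 and Pou3f4 windows each held 3 CCAAT matches and the Pou3f2 window 2. Among 27025 promoter windows of the same length, 1 for each gene, 10.5% held at least 2 and 2.98% at least 3. The octamer ATGCAAAT, the site that POU proteins are known for, was in 0 of the 3 windows and in 1.61% of all windows. TATAAA and CAGCTG were also in 0 of the 3 windows, against 13% and 12.8% of all. GGGCGG occurred 1 time each in the Pou3f2 and Pou3f3 windows and was not found in that of Pou3f4, against 32.9% of all windows with at least 1. All motifs were searched on both strands, no match overlapped a match of another motif, and the motifs were chosen after the sequences had been seen. The GC content was 66.8% for Pou3f2, 60.8% for Pou3f3 and 58% for Pou3f4, with a median of 52% over all windows. A match describes the letters and does not show that a site is used.

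All 4 class III genes were lower with Dox, and in all 4 both Dox libraries lay below both untreated libraries. Among the 13931 tested genes this held for 26.9%. Pou3f3, the gene with the highest level, was listed at 17.96 and 18.01 FPKM in untreated replicates 1 and 2 and at 1.06 and 0.98 FPKM in Dox replicates 1 and 2. The untreated replicates were nearly equal, and the Dox values lay at a small part of them. The means were 18.0 ± 0.0354 and 1.02 ± 0.0566 FPKM (SD, n = 2 each), a ratio of 17.6 in favour of the untreated group. The fold change of log2(FPKM + 1) was -3.23 (SE 0.0979), and the added 1 makes this measure smaller than the ratio for genes at low levels. Ranked from the lowest fold change of all tested genes, Pou3f3 (ENSMUSG00000045515, chr1:42695768-42703176) came 17th.

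Pou3f2, used with other factors to turn fibroblasts into neurons, was listed at 10.54 and 9.58 FPKM untreated and at 0.66 and 0.71 FPKM with Dox. Its untreated replicates differed by more than the whole Dox level, and the groups stood far apart. The means were 10.1 ± 0.679 and 0.685 ± 0.0354 FPKM (SD, n = 2 each), a ratio of 14.7. The log2 fold change was -2.71 (SE 0.114). Pou3f2 (ENSMUSG00000095139) lies at chr4:22482780-22488366 on the minus strand and ranked 31st from the lowest fold change.

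Pou3f4 was at 2.94 and 2.83 FPKM untreated and at 0.41 and 0.28 FPKM with Dox. The means were 2.88 ± 0.0778 and 0.345 ± 0.0919 FPKM (SD, n = 2 each), a ratio of 8.36 and a log2 fold change of -1.53 (SE 0.134). The Dox values rest on about 35 and 25 fragments, estimated with the GENCODE length of 2928 nt. With the RefSeq length of 4730 nt the estimates would be larger. The exact 95% Poisson intervals for the GENCODE length, 24.4 to 48.7 and 16.2 to 36.9 fragments, cover counting error only. These intervals overlap, and the difference between the Dox replicates was not tested. Pou3f4 (ENSMUSG00000056854) lies on the X chromosome at chrX:110814280-110817207.

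Pou3f1, the member most tied to early neural ectoderm, was at 2.36 and 1.83 FPKM untreated and at 0.42 and 0.54 FPKM with Dox. It had the smallest ratio of the 4, with means of 2.09 ± 0.375 and 0.48 ± 0.0849 FPKM (SD, n = 2 each), a ratio of 4.36 and a log2 fold change of -1.06 (SE 0.153). By the GENCODE length, about 276 and 230 fragments stood behind the untreated values and 48 and 64 behind the Dox values. Taking the closest libraries of the groups, the ratio was 3.39, and taking the farthest it was 5.62. The same limits were 16.9 and 18.4 for Pou3f3, 13.5 and 16 for Pou3f2, and 6.9 and 10.5 for Pou3f4. These ranges did not overlap between members, but they leave out counting error. For Pou3f2 with Dox the 95% Poisson intervals were 92.2 to 134.8 and 103.1 to 147.8 fragments. Whether the ratios of Pou3f2 and Pou3f3 differ was not tested. Pou3f1 (ENSMUSG00000090125) lies at chr4:124656807-124660655 on the plus strand.

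**Figure D1:**
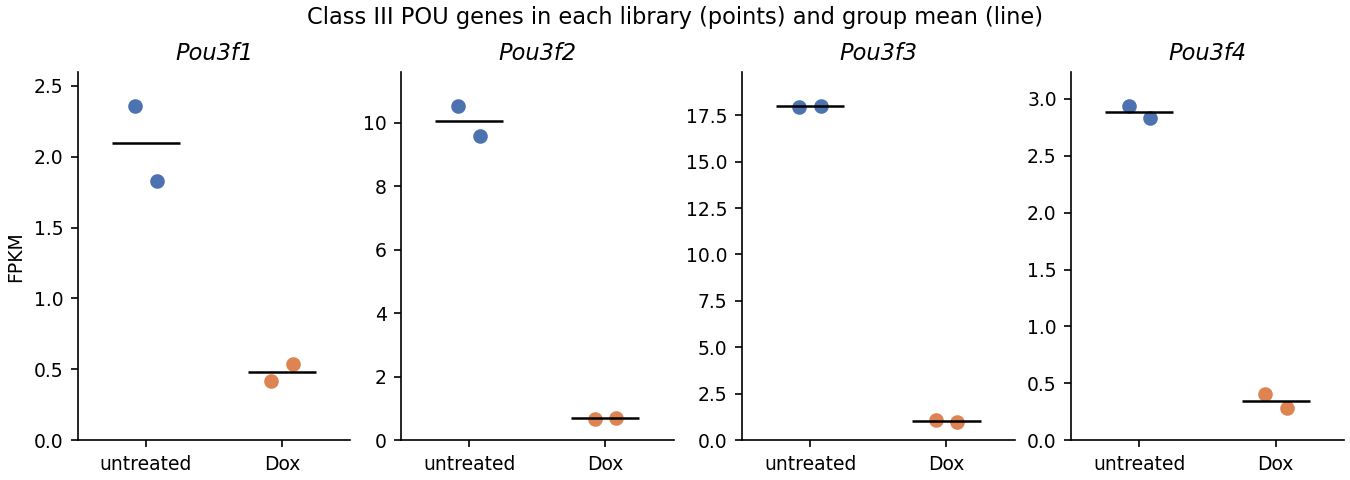
FPKM of each class III POU gene (vertical axes, from 0, scaled per gene) in the 2 untreated and 2 Dox libraries (points), with the group mean as a line. In every panel both Dox points lie below both untreated points, with Pou3f3 falling from a mean of 18.0 to 1.02 FPKM and Pou3f1 from 2.09 to 0.48 FPKM.

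In both untreated libraries the order of levels was Pou3f3, Pou3f2, Pou3f4, Pou3f1, and these are levels per length. The untreated levels of neighbours in this order did not overlap. With Dox the order was Pou3f3, Pou3f2, Pou3f1, Pou3f4, but in Dox replicate 1 Pou3f1 and Pou3f4 stood at 0.42 and 0.41 FPKM, nearly a tie, against 0.54 and 0.28 FPKM in Dox replicate 2. The summed level of the class was 33.8 and 32.25 FPKM untreated and 2.55 and 2.51 FPKM with Dox, a ratio of 13.1 between the means. The ranking depends on the transcript lengths behind the FPKM values, which the sources used here do not give. The GENCODE gene model of Pou3f3 has 7409 nt and the RefSeq gene 4443 nt, and for Pou3f4 the lengths are 2928 and 4730 nt. For Pou3f2 they are 5587 and 6272 nt and for Pou3f1 3849 and 3010 nt. Comparisons of 1 gene between libraries do not depend on this choice.

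The make-up of the class sum differed between the groups, a measure in which the scaling of a library cancels. Pou3f3 held 53.1% and 55.8% of the sum in the untreated libraries and 41.6% and 39% in the Dox libraries. Pou3f1 held 6.98% and 5.67% untreated and 16.5% and 21.5% with Dox. Pou3f4 held 8.7% and 8.78% untreated and 16.1% and 11.2% with Dox. The share of Pou3f2 was the most even, at 31.2% and 29.7% untreated and 25.9% and 28.3% with Dox. The groups did not overlap for any of the 4 shares, though for Pou3f2 only narrowly (29.7% against 28.3%). The shares of a library add up to the whole, so they are not separate observations. They also follow from the same values that chose the members. How often such shares separate for other sets of genes was not tested.

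**Figure D2:**
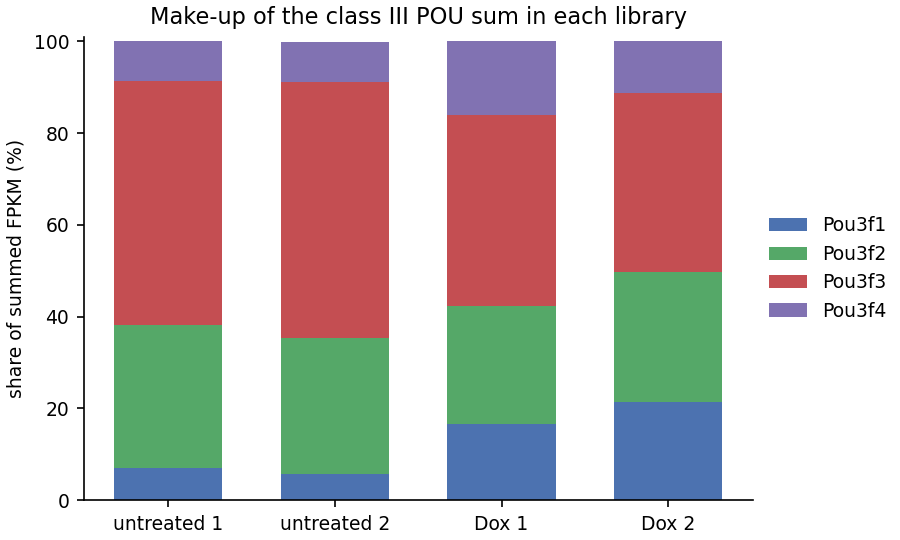
Share of the summed class III FPKM (vertical axis, percent) held by each member in each of the 4 libraries (stacked bars). The Pou3f3 block is above 53% in the untreated libraries and below 42% in the Dox libraries, while the Pou3f1 block grows from 5.67% and 6.98% to 16.5% and 21.5%.

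The 11 POU genes of the other classes showed no common direction. Of these, 5 passed the filter, and 0 were called higher and 1 lower in limma, with a median log2 fold change of -0.01 against -0.0042 over all tested genes. The median of the 5 rose to 0.24 without Dox replicate 2 and to 0.09 without untreated replicate 1. The called gene was Pou4f1 (Brn3a), a class IV factor of sensory neurons and the habenula, at 9.64 and 9.27 FPKM untreated and 1.3 and 1.06 FPKM with Dox. Its log2 fold change was -2.26 (SE 0.115, adjusted p = 3.37e-04 in limma). Pou2f1 (Oct1), expressed in most cell types, was at 6.75 and 7.26 FPKM untreated and 8.44 and 9.92 FPKM with Dox (log2 fold change 0.34, adjusted p = 0.136 in limma). Pou5f1 (Oct4), the class V pluripotency factor, was at 10.84 and 9.24 FPKM untreated and 12.08 and 8.14 FPKM with Dox (log2 fold change -0.01, adjusted p = 0.98 in limma), and its groups overlapped. Pou2f2 and Pou6f1 had log2 fold changes of 0.26 and -0.35 and did not pass either. Pou2f3 reached at most 0.14 FPKM, and Pou1f1, Pou4f2, Pou4f3 and Pou5f2 stayed under 0.1 FPKM in every library. Pou4f2 is the class IV factor of retinal ganglion cells.

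**Figure D3:**
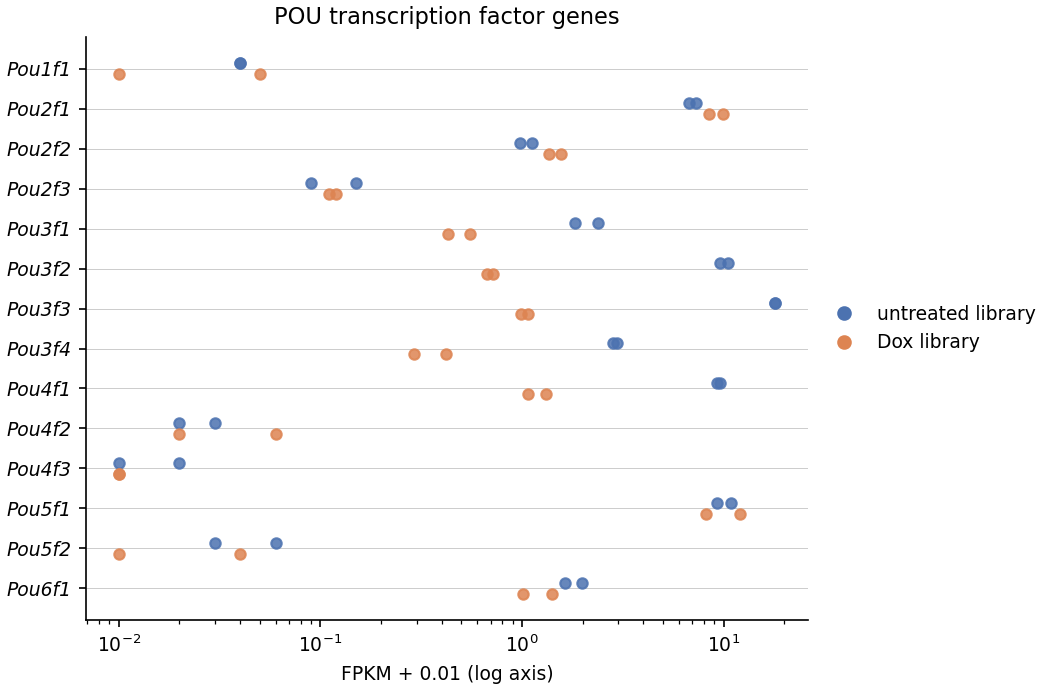
FPKM + 0.01 on a log axis (horizontal) of POU genes in the table, with 1 point for each untreated and each Dox library. The 4 class III genes and Pou4f1 have their Dox points to the left of their untreated points by a wide margin, and Pou2f1 and Pou5f1 have points of both groups close together.

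Next to Pou3f3 lie transcripts named after it. Pantr1 (linc-Brn1a), a long noncoding RNA, runs away from Pou3f3 on the minus strand (chr1:42590782-42694842), with 925 bp between the gene bounds. It was listed at 68.84 and 74.13 FPKM untreated and at 10.74 and 4.28 FPKM with Dox, a level per length above that of Pou3f3 in every library. Both Dox libraries were low, and they differed from each other by more than those of Pou3f3. The means were 71.5 ± 3.74 and 7.51 ± 4.57 FPKM (SD, n = 2 each), and the log2 fold change was -3.20 (SE 0.356, adjusted p = 0.00494 in limma). The call was lost without the filter (adjusted p = 0.0721 in limma) and with robust estimation (adjusted p = 0.0707 in limma). Pantr2 (linc-Brn1b), 3884 bp beyond the other end of Pou3f3, was at 0.33 and 0.23 FPKM untreated and at 0.17 and 0 with Dox, too low to be tested. AC122898.1, a noncoding transcript that spans Pou3f3 on the same strand without sharing exons with it, was at 0.75 and 0.52 FPKM untreated and 0.06 and 0.16 FPKM with Dox.

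**Figure D4:**
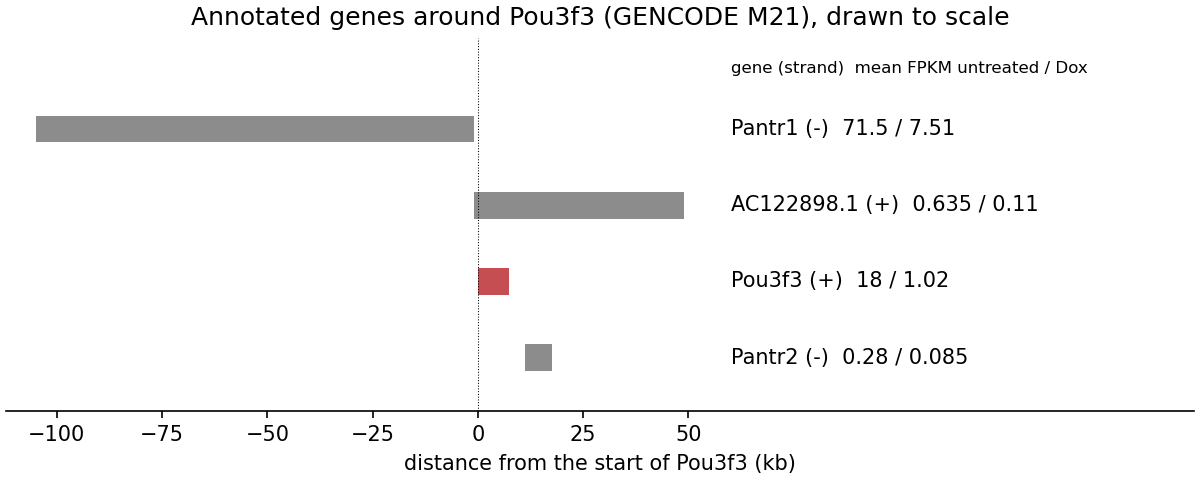
Annotated genes around Pou3f3 drawn to scale by distance from its start (horizontal axis, kb), with strand and mean FPKM untreated and with Dox written beside each. Pantr1 starts just left of Pou3f3 and runs the other way, and its mean was 71.5 FPKM untreated and 7.51 FPKM with Dox.

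Among the nearest genes of the other members, those that could be tested, Fbxl4 and Utp11, did not pass the threshold. Beside Pou3f2, Fbxl4, a ubiquitin ligase subunit gene, was at 3.89 and 4.68 FPKM untreated and 4.69 and 5.19 FPKM with Dox (log2 fold change 0.17, adjusted p = 0.471 in limma). The noncoding Gm30731, also beside Pou3f2, was at 0.11 and 0.29 FPKM untreated and listed at 0 with Dox. Its direction was that of Pou3f2, but it was too low to be tested. Beside Pou3f1, Utp11, a gene of ribosomal RNA processing, was at 22.88 and 22.98 FPKM untreated and 26.88 and 26.29 FPKM with Dox (log2 fold change 0.20, adjusted p = 0.143 in limma). The transcript on the other side of Pou3f1, and the nearest genes on both sides of Pou3f4 (Gm44593 and Cylc1), were listed at 0 in all 4 libraries.

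SOX proteins bind next to POU proteins on many neural enhancers, and their genes moved in both directions. Of 7 tested SOXB and SOXC genes 4 were lower and 2 higher past the threshold in limma, with a median log2 fold change of -0.69. Sox21 was at 39.46 and 39.34 FPKM untreated and 8.57 and 7.93 FPKM with Dox (log2 fold change -2.13, adjusted p = 1.19e-04 in limma). Sox1, an early neural marker, was at 27.37 and 25.73 FPKM untreated and 5.53 and 5.17 FPKM with Dox (log2 fold change -2.12, adjusted p = 1.61e-04 in limma). Sox4 changed less, by -0.71 in log2 units (adjusted p = 0.00421 in limma). The higher genes, named after their values were seen, were Sox2, the partner of Pou3f2 at the Nes enhancer, and Sox11. Sox2 was at 109.56 and 97.34 FPKM untreated and 139.25 and 163.64 FPKM with Dox (log2 fold change 0.54, adjusted p = 0.0347 in limma), and Sox11 was higher by 0.55 in log2 units (adjusted p = 0.0271 in limma). These calls were weak: leaving out any 1 library ended the call of Sox2 (adjusted p 0.0629 to 0.204 in limma), and leaving out untreated replicate 1, untreated replicate 2 or Dox replicate 2 ended that of Sox11 (0.0858 to 0.141).

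Of 17 genes described in the literature as bound or regulated by class III POU factors in some tissue, 12 were tested, 4 were lower and 3 higher past the threshold in limma, with a median log2 fold change of -0.16. Zic1, a zinc finger gene of the dorsal neural tube, was at 70.99 and 66.83 FPKM untreated and 3.13 and 3.37 FPKM with Dox (log2 fold change -4.04, adjusted p = 4.17e-05 in limma). Fabp7, a radial glia gene with a POU site in its enhancer, was at 73.08 and 75.09 FPKM untreated and 5.18 and 6.22 FPKM with Dox (log2 fold change -3.49, adjusted p = 6.96e-05 in limma). Mitf, a pigment cell regulator that Pou3f2 represses in melanoma cells, moved the other way, from 0.93 and 0.97 FPKM untreated to 12.78 and 12.71 FPKM with Dox (log2 fold change 2.82, adjusted p = 1.17e-04 in limma). The other lower genes were Dll1, a Notch ligand (log2 fold change -1.62), and Nes, the neural progenitor filament (-1.14), and the other higher genes were Sox2 and Zic2 (0.75). The call of Zic2 was lost without untreated replicate 1, untreated replicate 2 or Dox replicate 2 (adjusted p 0.0771 to 0.147 in limma). Dab1, Epha4, Pax6, Cdk5r1 and Zfp521 did not pass, with log2 fold changes of -0.02, 0.05, 0.04, -0.39 and -0.30. Crh and Gcg, targets in hypothalamus and pancreas, were listed at 0 in every library.

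Early neuron genes were lower with Dox together with the class III genes. All 9 tested genes of the proneural and early neuron list were called lower in limma and 0 higher, with a median log2 fold change of -1.70. With a minimum mean of 5 FPKM, which left fewer genes to test, 3 were called lower and 0 higher. The call of Elavl3 (log2 fold change -1.18) was lost without Dox replicate 1 (-1.14) or Dox replicate 2 (-1.22). Neurog2, a proneural factor, was at 5.4 and 4.64 FPKM untreated and 0.3 and 0.4 FPKM with Dox (log2 fold change -2.15, adjusted p = 6.8e-04 in limma). Stmn2, a growth cone gene, was at 11.47 and 10.55 FPKM untreated and 2.27 and 2.29 FPKM with Dox (-1.87), and Neurog1 had a log2 fold change of -1.80. Myt1l, a partner of Pou3f2 in reprogramming, stayed at or under 0.11 FPKM. The summed level of the 12 listed genes was 161 to 165 FPKM untreated and 82.9 to 87.2 FPKM with Dox, a ratio of 1.92. Most of that sum was Tubb3, a neuronal tubulin, at 118.53 and 116.78 FPKM untreated and 75.76 and 79.83 FPKM with Dox (log2 fold change -0.59, adjusted p = 0.00461 in limma), a call lost without untreated replicate 1 (adjusted p = 0.0555 in limma). Without Tubb3 the sum was 46.76 and 44.57 FPKM untreated and 7.12 and 7.4 FPKM with Dox, a ratio of 6.29. In bulk RNA, fewer cells of a type and less RNA per cell cannot be told apart, and the part of these cells in the class III values was not tested.

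The regions where class III factors act later were unevenly represented. In the hypothalamic neuroendocrine list 3 of 9 genes were tested, and 2 were lower and 0 higher in limma. Sim1, which acts upstream of Pou3f2 in the hypothalamus, was at 0.43 and 0.54 FPKM untreated and 0.02 and 0.01 FPKM with Dox, Otp did not exceed 0.06 FPKM, and Crh and Avp were listed at 0. Ghrh went the other way, from 0.11 and 0 to 0.57 and 0.66 FPKM, too low to be tested. Arnt2, the most abundant gene of the list, was at 17.94 and 16.39 FPKM untreated and 20.13 and 22.13 FPKM with Dox (log2 fold change 0.28, adjusted p = 0.126 in limma), and the summed level of the list had a ratio of 1.05 between untreated and Dox. Sst was at 3.72 and 3.68 FPKM untreated and 0.39 and 0.13 FPKM with Dox (log2 fold change -1.91, adjusted p = 0.00156 in limma). Trh had a log2 fold change of -0.86, and its call was lost without any 1 of the 4 libraries (adjusted p 0.0567 to 0.0747 in limma). Of 6 tested cortical genes 3 were lower and 1 higher in limma. Emx2, a dorsal telencephalic factor, was at 78.18 and 75.76 FPKM untreated and 11.01 and 6.26 FPKM with Dox (log2 fold change -3.06, adjusted p = 0.00116 in limma). Emx1 had a log2 fold change of -0.87, and its call was lost without untreated replicate 2, Dox replicate 1 or Dox replicate 2 (adjusted p 0.0962 to 0.144 in limma). The count of lower genes fell to 1 without untreated replicate 2, Dox replicate 1 or Dox replicate 2. The upper-layer markers Cux1 and Cux2 did not pass (0.17 and -0.53), and Tbr1 and Bcl11b stayed under 0.5 FPKM.

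Pou3f1 is also an epiblast gene, and the epiblast list did not share its direction. Of 10 tested genes 1 was higher and 2 lower in limma, with a median log2 fold change of -0.02. Fgf5, a defining epiblast marker, did not exceed 0.45 FPKM. Dnmt3b had a log2 fold change of 0.78, Sox3 of -0.69 and Otx2 of -0.36. These calls were lost without Dox replicate 1 or Dox replicate 2, with an adjusted p of 0.0565 to 0.0766 for Dnmt3b and of 0.0567 to 0.0613 for Sox3 in limma, and for Otx2 without any 1 of the 4 libraries (0.0804 to 0.195).

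Markers of other cell types moved with the class III genes and are given for each list. Of 10 tested markers of diencephalon and dorsal forebrain 9 were lower and 0 higher in limma, with a median log2 fold change of -2.42, and their summed level was 396 to 420 FPKM untreated and 59.8 to 60.5 FPKM with Dox, a ratio of 6.78. Besides Zic1, Wnt8b was at 87.09 and 85.29 FPKM untreated and 4.07 and 5.57 FPKM with Dox, and Wnt7b was at 105.18 and 94.81 FPKM untreated and 8.14 and 6.71 FPKM with Dox. Of 7 neural crest markers 5 were lower and 0 higher, with summed levels of 40.3 to 41.7 FPKM untreated and 8.37 to 10.3 FPKM with Dox, a ratio of 4.39. Sox10, which with Pou3f1 marks Schwann cells, was at 12.79 and 13.35 FPKM untreated and 0.82 and 0.43 FPKM with Dox. Tfap2b and Pax3 had log2 fold changes of -2.45 and -2.33. Of 6 tested glia and Schwann markers 3 were lower and 1 higher, and Olig2 (log2 fold change -2.15) was the lowest after Sox10. The higher gene, Pdgfra (0.85), lost its call without untreated replicate 1, Dox replicate 1 or Dox replicate 2 (adjusted p 0.0688 to 0.0835 in limma). The part of these cell types in the class III values was not tested.

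Markers of the midbrain and hindbrain were mostly near 0. Of the 10 genes 2 were tested and called higher in limma, and 0 lower. Pax2, which also marks the optic stalk, was at 0.22 and 0.2 FPKM untreated and 20.56 and 30.37 FPKM with Dox, and Fgf8 had a log2 fold change of 0.78, a call lost without any 1 of the 4 libraries (adjusted p 0.0566 to 0.0699 in limma). En1, En2, Pax5, Gbx2 and the 3 Hox genes did not exceed 0.16 FPKM. Of 4 tested surface epithelium markers 1 was lower, Tfap2c (log2 fold change -1.76), and 0 were higher, with Trp63, Krt5 and Krt14 at or near 0. The 8 mesendoderm markers held 0 tested genes and summed to at most 2.47 FPKM.

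**Figure D5:**
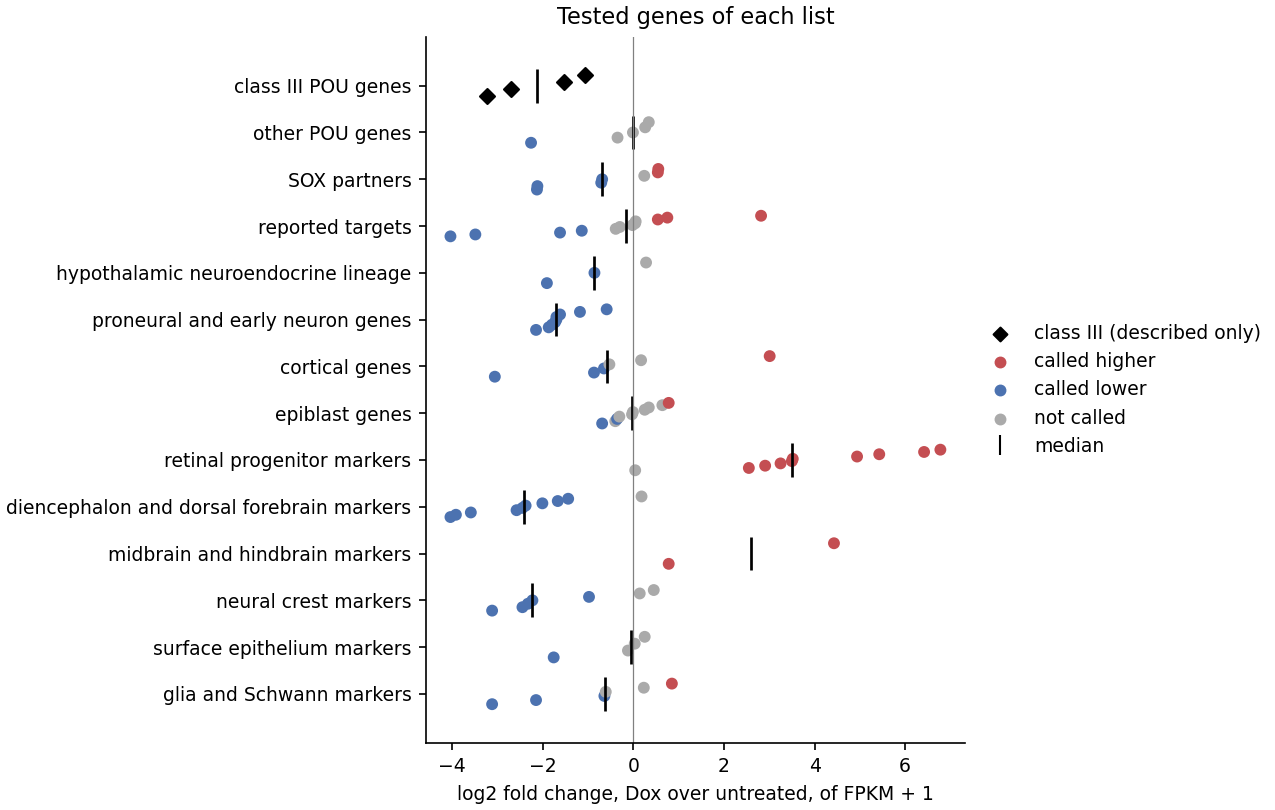
Log2 fold change of FPKM + 1, Dox over untreated (horizontal axis), of the tested genes of each list, 1 point a gene, with the list's median as a black bar. Black diamonds are the class III genes, and colours give the limma call of the other genes. The class III genes lie between -3.23 and -1.06, within the range of the diencephalon list (-4.04 to 0.18). Pou3f2 (-2.71) and Pou3f3 (-3.23) lie below every tested gene of the neuron list, whose lowest is Neurog2 (-2.15). Pou3f3 also lies below the lowest neural crest gene, Sox10 (-3.12). These orders hold for FPKM + 1, which shrinks the change of genes at low levels. By the ratio of means Neurog1 (2.89 to 0.115 FPKM) and Sox10 (13.1 to 0.625 FPKM) changed more than Pou3f3 (18.0 to 1.02 FPKM). The retinal progenitor markers have a median of 3.51.

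The genes whose pattern over the 4 libraries was nearest to each member, by Euclidean distance between centred log2(FPKM + 1) values among the tested genes, are given as a description. For Pou3f3 they were Rspo3, a Wnt agonist of the dorsal neural tube (distance 0.102), Fam181b (0.159) and the chemokine receptor gene Cxcr4 (0.22). Rspo3 was at 35.79 and 36.75 FPKM untreated and 2.72 and 2.73 FPKM with Dox. For Pou3f2 they included Fam181a (0.109) and Dmbx1, a homeobox gene of the midbrain and diencephalon (0.145). Dmbx1 was at 7.97 and 7.09 FPKM untreated and 0.38 and 0.48 FPKM with Dox. For Pou3f4 they were Jam2, a junctional adhesion gene (0.0536), Wnt7a, a Wnt ligand (0.0791), and Prmt8, an arginine methyltransferase gene (0.0854). For Pou3f1 they were Sarm1 (0.0383), Trak1 (0.0428) and Nxph4 (0.0533). With 4 libraries in 2 groups, the distance is set mainly by the difference between the groups. The calls of Sarm1 and Nxph4 were lost without Dox replicate 1 or Dox replicate 2, and that of Sarm1 also without untreated replicate 1 (adjusted p 0.0538 to 0.0777 in limma).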

How the data were processed

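Gene-level FPKM values of 4 poly(A) RNA libraries were used as the authors deposited them, 1 column per library, rounded to 2 decimals. The submitters' processing notes name STAR, Cuffdiff and the build mm10. Tool versions, annotation release and use of strand are not given in the sources used here. Gene models and transcripts came from GENCODE M21 (GRCm38) and promoters from RefSeq (GRCm38.p6).

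The 13931 genes that averaged 1 FPKM or more were fitted as log2(FPKM + 1) with limma 3.58.1 in R 4.3.3 (eBayes with trend, no covariate), two-sided, with Benjamini-Hochberg adjustment over all tested genes at 0.05. An exact permutation test of 2 against 2 cannot go below 0.333. The fit was also run on simulated data, and the outcome is not reported here. Fragments were estimated as FPKM times depth times GENCODE transcript length less 240 nt. That length may differ from the one behind the deposited FPKM values. Depth was fitted to single-transcript genes with low values, of which 87.4% to 88.3% came out within 0.15 of a whole fragment, against 14.8% to 16.7% at other depths (Python 3.11.15, numpy 2.4.6).

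The members and lists were chosen with earlier results of these data known. Named genes are the members, all POU genes, up to 3 called genes with the largest change per list, the nearest genes on each side and the 3 nearest profiles; a few of these genes are not reported here. Alternatives were other pseudocounts, filters, scalings and eBayes settings, a replicate block and each library left out.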

Additional observations from a re-analysis of the deposited data

How the results depend on the processing

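The log2 fold changes of the members stayed negative in every setting tried. Filters, eBayes settings and a replicate block cannot change these values. Leaving out a library cannot turn their sign, because the groups did not overlap, or move them by more than the replicate spread. They moved most with the pseudocount, which sets the scale by construction. With a pseudocount of 0.1 they were -1.92 (Pou3f1), -3.69 (Pou3f2), -4.01 (Pou3f3) and -2.76 (Pou3f4), and with 5 they were -0.37, -1.40, -1.93 and -0.56. With each library left out in turn they ranged from -1.18 to -0.94 for Pou3f1, -2.78 to -2.65 for Pou3f2, -3.26 to -3.20 for Pou3f3 and -1.60 to -1.46 for Pou3f4. With a minimum mean of 5 FPKM Pou3f1 and Pou3f4 were not tested. Fragment numbers limit the Dox values of Pou3f4 and Pou3f1 most.

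Over all genes 619 were called higher and 678 lower. The counts were 336 and 409 without a filter, which adds genes to the adjustment, and 408 and 413 where only genes averaging 5 FPKM or more were tested. With 1 library left out, where the lone library is assumed to vary like the other group, 262 to 320 were called higher and 331 to 377 lower. Adding a replicate block gave 532 and 602. Over the tested genes, deviations of same-numbered libraries from their group means had a correlation of -0.043. This single value cannot show whether such libraries were cultured or handled together. Of the 100 list, neighbour and nearest-profile genes tested, 80 kept their call in each alternative that tested them (13 or 14 a gene), 18 lost and 2 gained a call in some, and 0 of the called genes changed sign. With the block Sox2 (adjusted p = 0.0505 in limma) and Otx2 (adjusted p = 0.105 in limma) lost their calls. The median of the hypothalamic list became 0.28 and that of the cortical list 0.17 with a minimum of 5 FPKM, which left fewer genes, and that of the other POU genes was -0.22 to 0.24 with 1 library left out, turning positive when untreated replicate 1 was dropped (0.09) or Dox replicate 2 (0.24). The cause was not tested.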
